A study of Homo sapiens with 6 samples.

Results

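The actin cytoskeleton and SRF target genes are a set of 35 genes chosen by name: serum response factor (SRF) and its partners, actins, myosin II subunits, tropomyosins, calponins and proteins of actin bundles and focal adhesions. All 35 were found, in 1 row each, among the 58735 genes of the deposited count table, and all 35 passed the filter on low counts. The RNA is from Ovcar8 cells, an established human ovarian cancer line, grown in RPMI-1640 medium. In 3 libraries the cells had 5% fetal bovine serum (FBS), and in the other 3, labelled serum starved, they had none. The time given is 48 h for both groups. Nothing in the labels ties the replicates to separate cultures, so each p-value reflects only the spread among these 6 libraries, which may be technical.

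Actin exists as free monomers and as filaments. Monomeric actin binds the coactivators MRTFA and MRTFB in the cytoplasm; when serum signals drive the building of monomers into filaments, the coactivators enter the nucleus, and with SRF they activate genes whose promoters hold a CArG box. Many of those genes encode actin and the proteins that bundle, move or anchor it, so SRF is known as a link between growth factors in serum and the cytoskeleton. In smooth muscle and in carcinoma cells with mesenchymal features the same genes are used as markers of a contractile state.

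The CArG box, the site that SRF binds, is shown here because it is the sequence feature by which this gene set is known. It is a run of CC, 6 bases that are each A or T, and GG, and its reverse complement has the same form, so that 1 scan covers both strands. RefSeq promoters (build GRCh38.p14, 250 bases before to 50 bases after a transcript start) were matched by symbol for 32 of the 35 genes; ACTB, MYL9 and TAGLN were not matched. A CArG box was present in 9 of these 32 genes (28.1%), against 438 of 27305 genes (1.6%) in the whole promoter table. Counted by promoter, since a gene can have several, it was present in 11 of 70 member promoters (15.7%) and in 1.29% of all 35116. SRF targets are recognised partly by this motif, so these shares are a description and were not tested. The boxes are printed in capitals with up to 20 flanking bases on each side, 5′ to 3′ on the gene's strand, from RefSeq:
SRF, chr6:43171219-43171268, plus strand: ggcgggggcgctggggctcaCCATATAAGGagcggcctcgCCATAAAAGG
ACTG1, chr17:81512864-81512913, minus strand: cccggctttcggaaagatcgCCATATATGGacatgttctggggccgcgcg
CNN2, chr19:1026499-1026548, plus strand: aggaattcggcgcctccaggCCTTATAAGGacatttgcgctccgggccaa
TPM4, chr19:16067345-16067394, plus strand: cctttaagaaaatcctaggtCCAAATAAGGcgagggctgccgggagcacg
FLNA, chrX:154374699-154374748, minus strand: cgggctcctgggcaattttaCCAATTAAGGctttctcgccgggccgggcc
TGFB1I1, chr16:31473134-31473183, plus strand: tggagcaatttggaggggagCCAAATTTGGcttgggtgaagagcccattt
FHL2, chr2:105438585-105438634, minus strand: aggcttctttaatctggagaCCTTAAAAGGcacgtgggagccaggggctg
FHL2, chr2:105399081-105399130, minus strand: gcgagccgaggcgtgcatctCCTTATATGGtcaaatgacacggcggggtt
FHL1, chrX:136196901-136196950, plus strand: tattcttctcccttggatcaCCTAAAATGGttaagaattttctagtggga
ACTN1, chr14:68977708-68977757, minus strand: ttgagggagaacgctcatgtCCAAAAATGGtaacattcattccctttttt

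SRF's own promoter held 2 boxes, beginning 30 and 10 bases before the start. In ACTG1 and FLNA the box began 94 bases before the start, in CNN2 89 and in TGFB1I1 51. The motif CATTCC (or GGAATG on the other strand), which TEAD factors bind, was present in 17.1% of member promoters and in 14% of all promoters. Counted by gene it was present in 11 of the 32 matched members (34.4%), against 16.7% of all genes in the promoter table and 15.2% of the tested ones. The 32 members had 70 promoters and the table's 27305 genes had 35116, so members had more windows per gene in which to match. Neither share was tested. The 9 genes with a CArG box had log2 fold changes, serum-starved over FBS, from -0.58 in TPM4 to 0.37 in FLNA, with a median of 0.09. The 23 matched genes without a box in this window ranged from -0.76 to 0.96, with a median of -0.19. The 2 ranges overlapped, and a missing match says only that these letters were not in these 300 bases. TAGLN and MYL9, the members with the lowest log2 fold changes, stand in neither count because their promoters were not matched.

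The question put to the RNA was whether these transcripts differ after 48 h without serum. By the quasi-likelihood test of edgeR, with p-values adjusted by Benjamini and Hochberg's method over all 13772 genes tested, 0 of the 35 members passed. Over all genes 39 did (0.283%), 0.24% higher and 0.0436% lower. In bulk RNA, less transcript per cell and fewer cells that make it cannot be told apart. The lowest adjusted p among the members was 0.214, for TAGLN, which encodes transgelin. At an unadjusted p under 0.05 there were 6 members (17.1%), 3 higher (VCL, MYH9 and MYH10; 6.01% of all genes) and 3 lower (TAGLN, MYL9 and TPM2; 4.37%), against 10.4% of all genes in either direction. DESeq2 called 1 member at an adjusted p under 0.05, TAGLN, against 1.16% of all genes, and 7 at an unadjusted p under 0.05, against 11.8%. The members' median log2 fold change was -0.14, against -0.02 over all genes, and 21 of 35 lay below 0, against 51.5% of all genes. Without serum-starved replicate 3 the members' median was -0.045, against -0.008 over all genes.

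The 3 serum-starved libraries lay entirely above or entirely below the 3 FBS libraries in CPM (counts scaled to a common library size with edgeR's TMM factors) in 11 members (31.4%), against 17.7% of all genes tested. Below were 7: TAGLN, MYL9, MYL6, TPM2, TPM3, TPM4 and CFL1 (7.65% of all genes). Above were 4: MYH9, MYH10, VCL and ACTA2 (10% of all genes). The share above, 4 of 35, is close to that of all genes. The shares of all genes were not matched to the members by expression level. The 7 below hold 3 of the 4 tropomyosin genes and 2 of the 4 myosin light chain genes; TPM1, MYL12A and MYL12B overlapped between the groups.

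**Figure D1:**
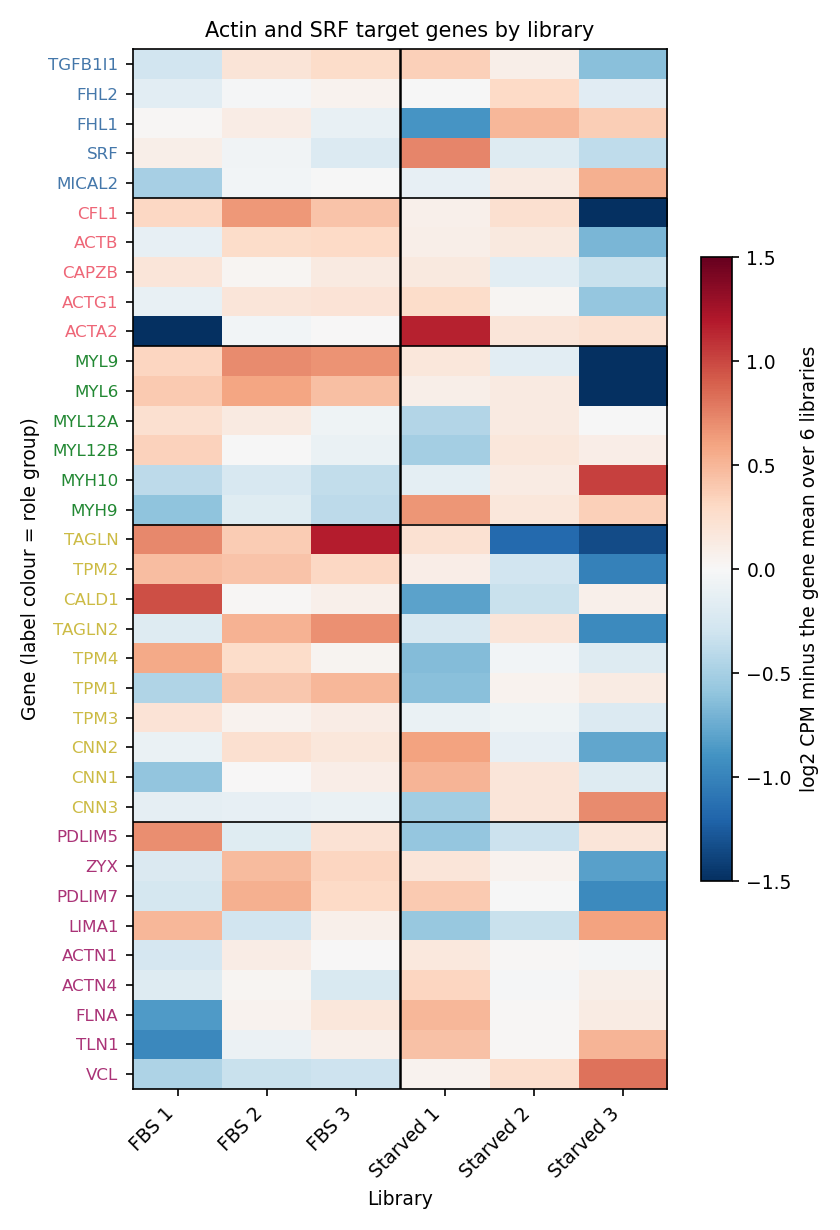
Heat map of the 35 genes (rows, grouped and coloured by role) in the 6 libraries (columns, FBS left and serum-starved right of the line). Colour is log2 CPM minus the gene's mean over the 6 libraries, and colours saturate at 1.5 in either direction. Serum-starved replicate 3 was the lowest library for 16 of the 35 genes.

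The libraries held 16379416 to 19558484 counts, and 3 of them stood apart in ways that the groups do not explain. In the genes of lowest GC content (lowest decile of transcript GC) the median log2 deviation was 0.79 in FBS replicate 1 and -0.70 in serum-starved replicate 1. In the shortest decile of genes it was -0.53 in serum-starved replicate 3, and in the longest decile 0.47. Of the 35 members, 16 had their lowest value in serum-starved replicate 3, 9 in FBS replicate 1, 9 in serum-starved replicate 1 and 1 in FBS replicate 3. Many values below are therefore given also with a correction for GC content and gene length per library, or without a library that moves them; the part of these trends in each result was not tested further. Epithelial and ovarian markers were present as labelled in KRT8 (4433 to 7248 CPM), KRT18, KRT7, MSLN and PAX8 (59.4 to 86.1 CPM), whereas MUC16 was at 0 counts and KRT19, EPCAM, WT1 and CDH1 were near 0. In FPKM, the authors' values per gene length scaled by size factors, leukocyte markers summed to at most 0.0223 in any library. The smooth muscle list summed to 4.62 to 7.73 FPKM with FBS and 6.25 to 9.99 FPKM without serum, most of it CNN1, with MYH11, LMOD1 and ACTG2 near 0. The fibroblast list summed to 31.2 to 57.6 and 75.6 to 82.4 FPKM; only COL1A1 of its 6 genes passed the filter, COL1A2 and DCN were at 0, and its part in the results was not tested. The endothelial list summed to at most 0.0829 FPKM with FBS and 0.44 FPKM without serum, with 1 of 3 genes, VWF, above the filter.

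None of SRF and its 4 partners passed, their groups overlapped, and their log2 fold changes ran from -0.08 to 0.37. SRF, the transcription factor itself (ENSG00000112658, chromosome 6, 43171299 to 43181507, GRCh38), was at 75.2, 68.6 and 61.7 CPM with FBS and at 118, 62.2 and 54.6 CPM without serum. Serum-starved replicate 1 was the highest of the 6 libraries and replicate 3 the lowest, so the groups overlapped. The log2 fold change was 0.19 with a standard error (SE) of 0.32 (edgeR adjusted p = 0.885); it was -0.22 without serum-starved replicate 1 and -0.0027 with the GC and length correction.

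FHL2, a LIM-only protein that binds SRF and is itself an SRF target, was the partner with the highest level per gene length, at 120 ± 9.87 FPKM with FBS and 128 ± 20.8 FPKM without serum (SD, n = 3). Its paralog FHL1 was at 64.4 ± 4.89 and 69.2 ± 30.1 CPM, with serum-starved replicate 1 at 34.7 CPM below every other library. MICAL2, a monooxygenase that oxidises nuclear actin and so frees MRTF coactivators, was at 51.4, 70.3 and 72.3 CPM with FBS and 66.3, 79.7 and 105 CPM without serum. That difference, a log2 fold change of 0.37 (SE 0.29, edgeR adjusted p = 0.717), was -0.04 with the GC and length correction and 0.17 without serum-starved replicate 3. By the deposited gene length, which is shorter than the span on the chromosome, MICAL2 is the longest of the set, at 20191 bases. TGFB1I1, which encodes the paxillin relative Hic-5 and has a CArG box, was at 137 ± 26.8 and 129 ± 41.6 CPM (log2 fold change -0.08).

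The actins carried most of the set's counts in each library but serum-starved replicate 3, where ACTB and ACTG1 took 1.73% of all counts out of 3.63% for the set. ACTB and ACTG1, the cytoplasmic beta and gamma actins, took 2.36% to 2.68% of all counts with FBS and 1.73% to 2.5% without serum, out of 4.12% to 4.71% and 3.63% to 4.41% for all 35 genes. ACTB (ENSG00000075624, chromosome 7, 5527147 to 5563784) was at 13382, 17658 and 17825 CPM with FBS and at 15432, 16052 and 9045 CPM without serum. ACTG1 (ENSG00000184009, chromosome 17, 81509971 to 81523847) was at 8079, 9935 and 10107 CPM with FBS and at 10578, 8911 and 5830 CPM without serum. Both overlapped between the groups, and in both serum-starved replicate 3 was the lowest library. The log2 fold changes were -0.27 (SE 0.36) for ACTB and -0.15 (SE 0.35) for ACTG1, and without serum-starved replicate 3 they were -0.05 and 0.05. The ratio of ACTB to ACTG1 in FPKM was 1.41, 1.51 and 1.5 with FBS and 1.24, 1.53 and 1.32 without serum, also overlapping. Of the 50-base stretches in ACTB transcripts 6.66% also occur in transcripts of other genes, most often of ACTBP2, so that its reads may be split between copies.

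ACTA2, the smooth muscle alpha actin often used as a contractile marker, was close to the limit of detection. It had 8, 19 and 18 counts with FBS and 38, 24 and 31 counts without serum (0.406, 1.13 and 1.17 against 2.58, 1.32 and 1.37 CPM; 3 counts correspond to 0.153 to 0.183 CPM). The groups did not overlap, but the log2 fold change of 0.96 had an SE of 0.71 (edgeR adjusted p = 0.693); it was 0.60 without serum-starved replicate 1 and 0.59 without FBS replicate 1. Its exons overlap by 380 bases with those of FAS on the opposite strand, which had 31 counts per library on average, so that at this depth reads of the 2 genes may not be told apart.

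CFL1, which encodes cofilin, the filament-severing protein (ENSG00000172757, chromosome 11, 65823022 to 65862026), was at 1639, 2074 and 1772 CPM with FBS and at 1388, 1563 and 402 CPM without serum. All starved libraries were lower, but serum-starved replicate 3 stood far below the other 2. The fitted value of -0.71 (log2, SE 0.41, edgeR adjusted p = 0.574) was -0.31 without serum-starved replicate 3 and -0.92 with the GC and length correction. That correction did not bring replicate 3 to the other starved libraries: corrected levels without serum were 1207, 1410 and 436 CPM. CAPZB, the beta subunit of the protein that caps filament ends, was at 242 ± 13.3 and 207 ± 35.4 CPM (log2 fold change -0.22, adjusted p = 0.841 in edgeR; -0.12 without serum-starved replicate 3).

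**Figure D2:**
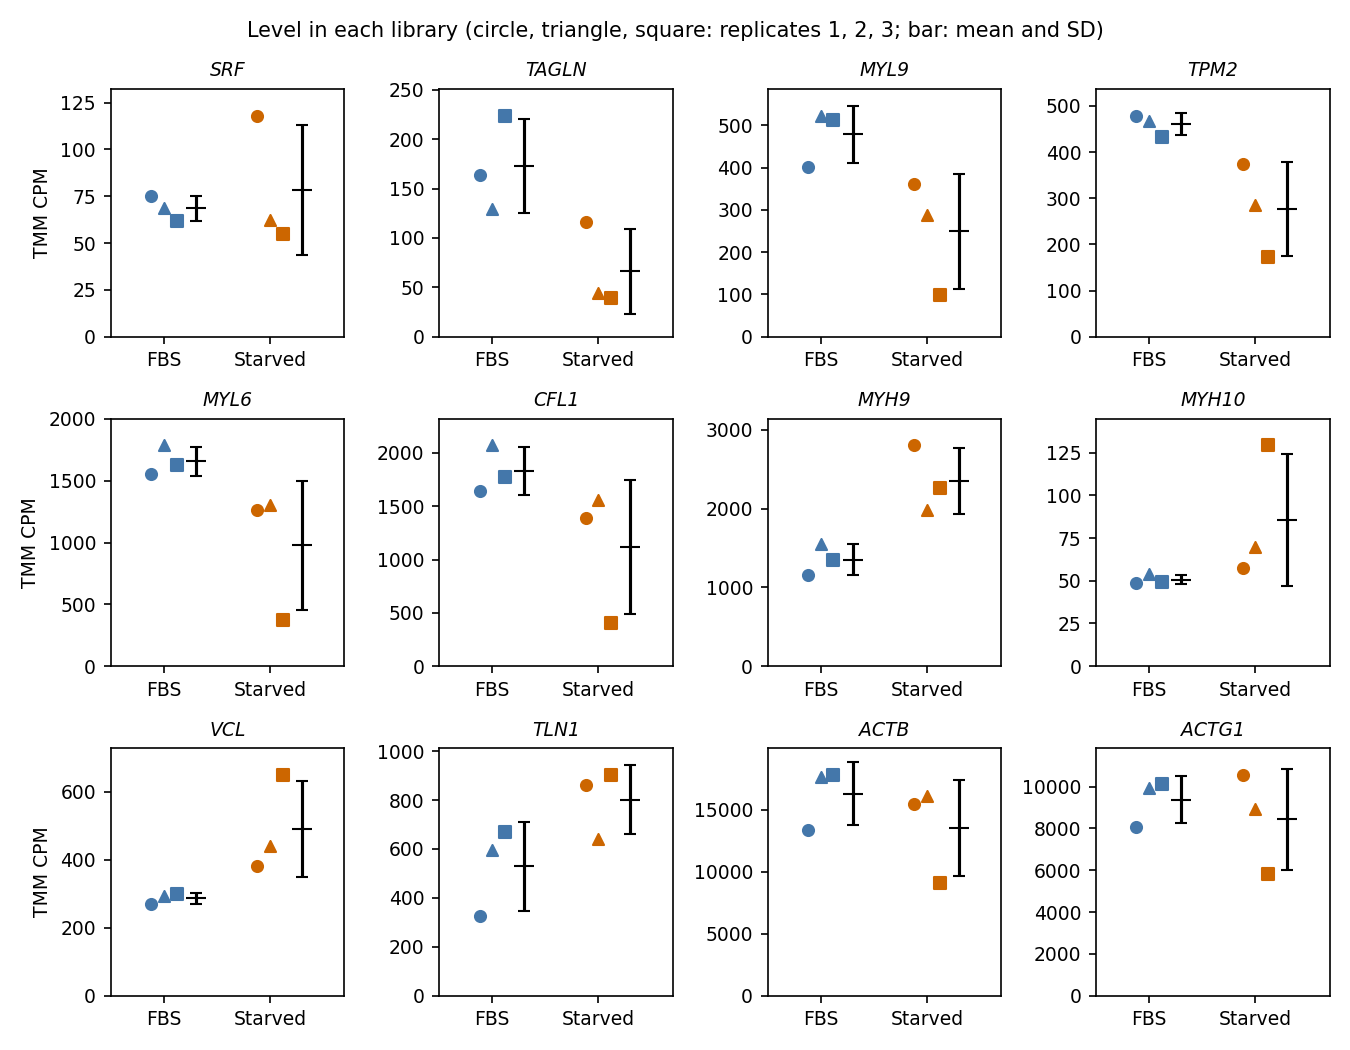
Level of 12 genes in each library, in CPM on axes from 0; circles, triangles and squares are replicates 1, 2 and 3, and the bars beside them give the mean and SD. In TAGLN, MYL9, TPM2, MYL6 and CFL1 every starved library lay below the FBS libraries. In MYH9, MYH10 and VCL every starved library lay above. CALD1 (log2 fold change -0.73) lay lower than CFL1 (-0.71) but overlapped between the groups, and is not shown.

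Myosin II, the motor that contracts actin filaments, is built of heavy chains and 2 kinds of light chain, and both heavy chains had log2 fold changes above 0 and all 4 light chain genes below 0, of which MYL12A and MYL12B were above 0 with the GC and length correction. MYH9, the non-muscle heavy chain IIA (ENSG00000100345, chromosome 22, 36281277 to 36388067), was at 1159, 1555 and 1343 CPM with FBS and at 2809, 1984 and 2265 CPM without serum. Every starved library exceeded every FBS library, and the fitted difference between the groups was 1.74-fold (log2 fold change 0.80, SE 0.32, adjusted p = 0.397 in edgeR). MYH10, the heavy chain IIB, was at 48.8, 53.9 and 49.5 CPM with FBS and at 57.7, 69.5 and 130 CPM without serum. Its groups did not overlap either, and serum-starved replicate 3 held the highest value; the log2 fold change was 0.76 (SE 0.32) and 0.32 without that library. With the GC and length correction the values were 0.53 for MYH9 and 0.60 for MYH10, and neither passed (adjusted p = 0.246 and 0.175 in edgeR). MYH9 exceeded MYH10 in FPKM 23.7-, 28.9- and 27.1-fold with FBS and 48.7-, 28.5- and 17.5-fold without serum, so that MYH9 was the main heavy chain in every library. MYH10 exons overlap with 72 bases of NDEL1 on the other strand, which had 25.8% as many counts.

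MYL9, a regulatory light chain of smooth muscle type and a known SRF target (ENSG00000101335, chromosome 20, 36541484 to 36551447), was at 401, 523 and 512 CPM with FBS and at 361, 288 and 97.8 CPM without serum. It was lower in every starved library, with a log2 fold change of -0.94 (SE 0.39, adjusted p = 0.404 in edgeR). With the GC and length correction it was at -1.07 (SE 0.24) and missed the threshold (adjusted p = 0.0551 in edgeR); without serum-starved replicate 3 and uncorrected it was -0.56. MYL6, the essential light chain and the myosin gene with the highest FPKM, was at 1558, 1789 and 1625 CPM with FBS and at 1261, 1300 and 375 CPM without serum. Its log2 fold change of -0.76 (SE 0.40, edgeR adjusted p = 0.533) was -0.37 without serum-starved replicate 3, the library in which CFL1 was also far below the rest. With the GC and length correction MYL6 was at -0.89, and its corrected levels without serum were 1199, 1172 and 396 CPM. MYL12A and MYL12B, neighbouring genes on chromosome 18 for near-identical regulatory light chains, overlapped between the groups at 167 ± 17.5 and 146 ± 29.1 CPM and at 179 ± 30.5 and 161 ± 38.5 CPM. Their log2 fold changes of -0.19 and -0.14 became 0.13 and 0.26 with the GC and length correction, and 5.77% and 5.86% of their 50-base stretches occur in other genes.

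Tropomyosins, calponins and caldesmon lie along the filament and regulate its contact with myosin; 8 of these 10 genes had a log2 fold change below 0, with a median of -0.45 (-0.64 with the GC and length correction). TAGLN, which encodes transgelin (SM22), a calponin relative and one of the best known SRF targets (ENSG00000149591, chromosome 11, 117199321 to 117204782), had the widest difference of all members in either direction. It was at 164, 130 and 224 CPM with FBS and at 116, 44.2 and 39.1 CPM without serum. Every starved library was lower, serum-starved replicate 1 only slightly below the lowest FBS library. The means were 173 ± 47.7 and 66.5 ± 43.0 CPM, a 2.6-fold difference (log2 fold change -1.38, SE 0.39, edgeR adjusted p = 0.214).

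TAGLN did not pass in the main fit but was called lower in some other fits to the same libraries. It passed once GC and length were corrected for (-1.56 on the log2 scale, SE 0.30, adjusted p = 0.0255 in edgeR, with 0.777% of all genes called). It passed in DESeq2 (adjusted p = 0.047) and without the low-count filter (edgeR adjusted p = 0.00732). It also passed without serum-starved replicate 1, the starved library closest to the FBS group (log2 fold change -2.03, edgeR adjusted p = 0.00435). Its corrected levels were 196, 122 and 220 CPM with FBS and 93.4, 40.1 and 48.8 CPM without serum. Of 18 alternatives it passed in 5. It did not pass with DESeq2's size factors, total counts or the filter of 1 CPM (edgeR adjusted p = 0.222, 0.219 and 0.202), in limma-voom (adjusted p = 0.131) or in the 3 limma fits to FPKM (adjusted p = 0.27 to 0.677). Nor did it pass without serum-starved replicate 3 (edgeR adjusted p = 0.0855) or without any of the remaining 4 libraries (0.301 to 0.983). TAGLN exons overlap by 446 bases with those of PCSK7 on the opposite strand, which was at 20.7 to 40.4 CPM and had a log2 fold change of 0.29. TAGLN2, the relative most abundant in this group by FPKM, was at 877, 1448 and 1625 CPM with FBS and at 852, 1138 and 520 CPM without serum. Those groups overlapped (log2 fold change -0.65, SE 0.36, edgeR adjusted p = 0.549), and without serum-starved replicate 3 the value was -0.41.

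Among the tropomyosins, TPM2 (ENSG00000198467, chromosome 9, 35681992 to 35690121) was at 479, 467 and 433 CPM with FBS and at 374, 285 and 172 CPM without serum. The starved libraries were all lower and more spread (-0.73 on the log2 scale, SE 0.32, adjusted p = 0.444 in edgeR; corrected for GC and length, -0.84 and 0.0702), and without serum-starved replicate 3 the value was -0.48. TPM4, whose promoter holds a CArG box, was at 323, 264 and 225 CPM with FBS and at 139, 212 and 191 CPM without serum, again without overlap (log2 fold change -0.58, SE 0.30, edgeR adjusted p = 0.52). TPM3 was also lower in every starved library, by a small step, at 914 ± 46.7 and 772 ± 39.1 CPM (log2 fold change -0.24). TPM1 overlapped between the groups at 272 ± 86.9 and 218 ± 56.4 CPM.

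In FPKM summed over the 4 tropomyosin genes, TPM2 made up 47.1%, 47.6% and 45.5% with FBS and 48.7%, 38.6% and 29.1% without serum. TPM3 made up 36.7%, 34.3% and 36.8% with FBS and 39.5%, 42.2% and 47.8% without serum, with no overlap between the groups. TPM2 and TPM3 were thus the main tropomyosins of these cells by FPKM, and in starved replicates 2 and 3 TPM3 exceeded TPM2. These FPKM were not corrected for GC content and length, in which TPM2 (58.1% GC, 3248 bases) and TPM3 (47.6% GC, 8389 bases) differ. In corrected CPM without serum TPM3 was at 956, 775 and 561 and TPM2 at 302, 258 and 226. CPM are not divided by gene length, and TPM3 exceeded TPM2 in uncorrected CPM in every library too. These CPM therefore do not give the order by FPKM. Shares were not computed from corrected values, so the order within a starved library may depend on the correction. Of TPM4's 50-base stretches 11.7% occur in other genes, the largest share in the set.

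CALD1, which encodes caldesmon, was at 37.04, 19.24 and 20.02 CPM with FBS and at 10.87, 15.04 and 20.08 CPM without serum; FBS replicate 1 was far above the rest and the groups overlapped (log2 fold change -0.73, SE 0.36, edgeR adjusted p = 0.499). Without FBS replicate 1 its log2 fold change was -0.36. The calponins CNN1, CNN2 and CNN3 all overlapped between the groups. CNN1, the smooth muscle calponin, was at 16.4 ± 3.94 and 20.6 ± 4.92 CPM (log2 fold change 0.32, or 0.13 without FBS replicate 1), and CNN2 at 275 ± 33.3 and 257 ± 121 CPM (-0.10). CNN3 was at 272, 274 and 279 CPM with FBS and at 209, 340 and 489 CPM without serum, so that the starved libraries lay on both sides of a narrow FBS group (log2 fold change 0.33, adjusted p = 0.781 in edgeR; -0.0058 without serum-starved replicate 3).

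**Figure D3:**
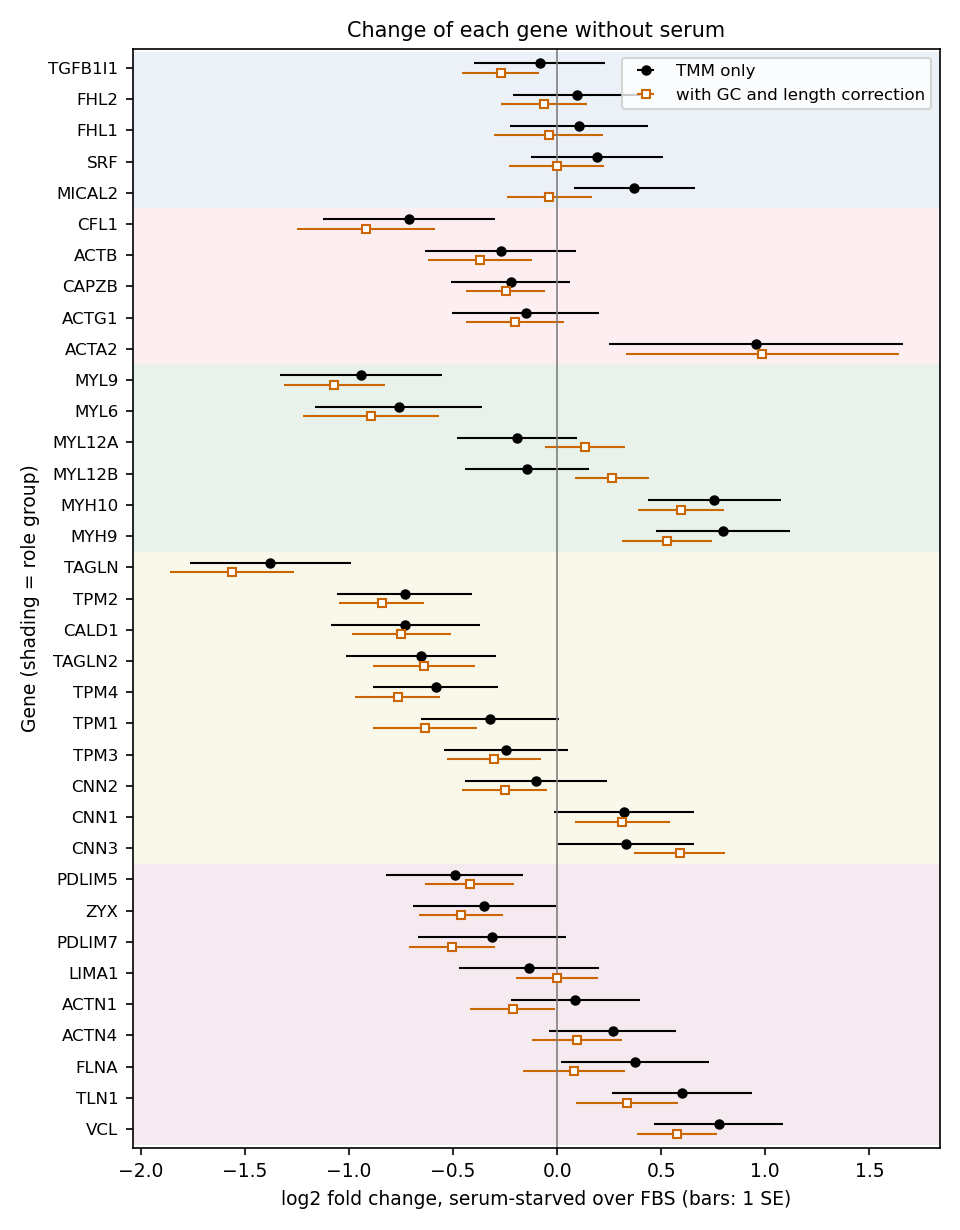
log2 fold change of each of the 35 genes, serum-starved over FBS, with bars of 1 SE, from the TMM-normalised edgeR fit (black circles) and with the GC and length correction (open squares). Shading marks the role groups. TAGLN lies lowest at -1.38 and -1.56, and ACTA2 highest at 0.96 and 0.99 with the widest bars.

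Cross-linkers and focal adhesion proteins, which bundle filaments and tie them to integrins, had a median log2 fold change of 0.09, and 4 of 9 lay below 0. VCL, which encodes vinculin (ENSG00000035403, chromosome 10, 73995193 to 74121363), was at 268, 293 and 299 CPM with FBS and at 382, 439 and 650 CPM without serum. All 3 starved libraries were above a narrow FBS group (log2 fold change 0.78, SE 0.31, adjusted p = 0.392 in edgeR). It was 0.58 with the GC and length correction and 0.52 without serum-starved replicate 3. TLN1, which encodes talin, the integrin-binding partner of vinculin, was at 324, 594 and 669 CPM with FBS and at 861, 641 and 904 CPM without serum. FBS replicate 1 was the low library there; the log2 fold change of 0.60 (SE 0.34, edgeR adjusted p = 0.558) was 0.34 without it and 0.34 with the GC and length correction.

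FLNA, which encodes filamin A, was the most abundant of these 9 genes by FPKM, at 186, 357 and 384 FPKM with FBS and 483, 343 and 371.5 FPKM without serum. FBS replicate 1 was again the low library, and the log2 fold change of 0.37 (SE 0.36) was 0.11 without it. The alpha-actinins ACTN1 and ACTN4 were at 1413 ± 181 and 1501 ± 100 CPM and at 969 ± 95.5 and 1166 ± 139 CPM, with log2 fold changes of 0.09 and 0.27, or -0.21 and 0.10 corrected for GC and length. The 4 LIM-domain proteins of adhesions and stress fibres had log2 fold changes below 0, of which LIMA1 was at 0.0004 with the GC and length correction. ZYX, which encodes zyxin, was at 917 ± 215 and 719 ± 240 CPM (log2 fold change -0.35), PDLIM7 at 411 ± 108 and 330 ± 141 CPM (-0.31), PDLIM5 at 31.6 ± 9.61 and 22.5 ± 6.19 CPM (-0.49) and LIMA1 at 101 ± 27.8 and 91.9 ± 42.3 CPM (-0.14). Without serum-starved replicate 3 ZYX was at -0.10 and PDLIM7 at -0.02, without FBS replicate 1 PDLIM5 was at -0.24 and LIMA1 at 0.09. All 4 overlapped between the groups, and none had an edgeR adjusted p below 0.638.

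**Figure D4:**
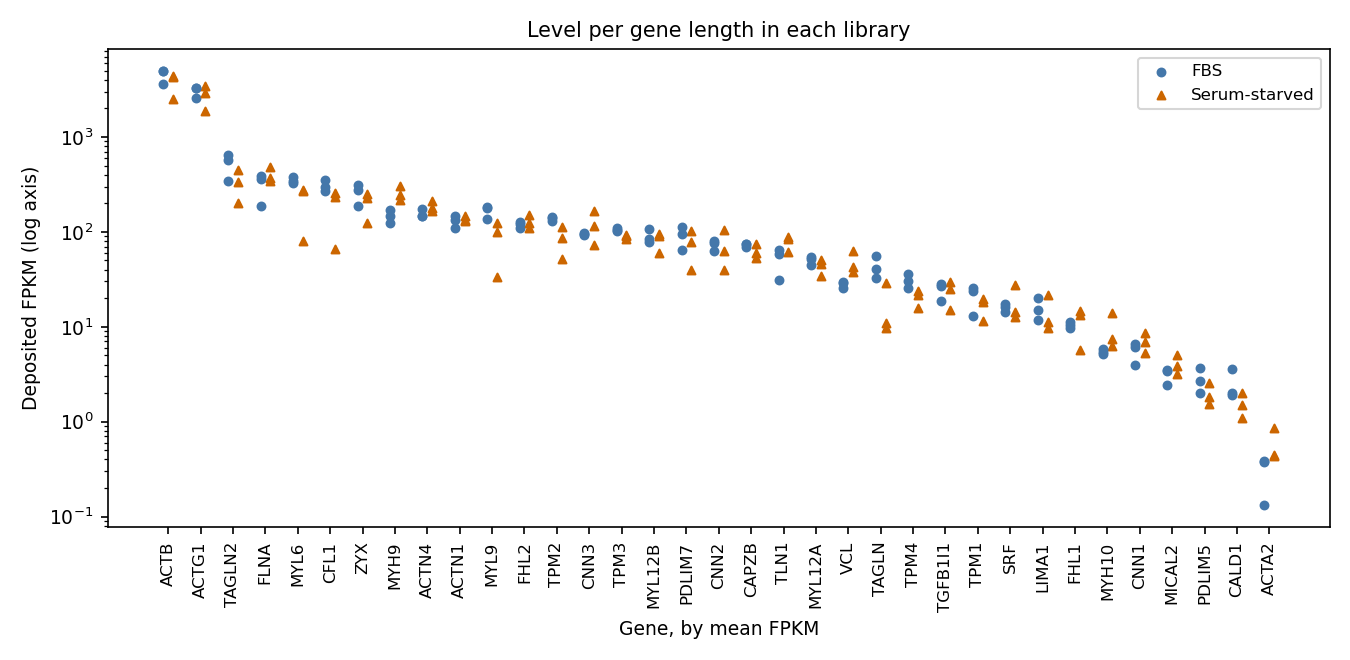
Deposited FPKM of each gene in each library on a log axis, with genes ordered by their mean over the 6 libraries (circles FBS, triangles serum-starved). ACTB and ACTG1 stand above the other genes and ACTA2 stands below all of them.

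Per gene length, the levels spanned from ACTB, at 4520 ± 745 FPKM with FBS and 3743 ± 1078 FPKM without serum, to ACTA2, at 0.297 ± 0.143 and 0.575 ± 0.237 FPKM (SD, n = 3). ACTG1 followed at 3057 ± 399 and 2750 ± 792 FPKM, below ACTB in each library. The next genes in order, TAGLN2, FLNA, MYL6, CFL1 and ZYX, had means over the 6 libraries of 423, 354, 279, 245 and 229 FPKM, and neighbours in this order overlapped. SRF itself was at 15.9 ± 1.42 and 18.2 ± 8.11 FPKM. The smooth muscle genes ACTA2 and CNN1 (5.56 ± 1.38 and 6.94 ± 1.68 FPKM) thus stood near the bottom of the set, TAGLN (43.0 ± 11.9 and 16.6 ± 10.8 FPKM) in the middle and MYL9 (166 ± 25.1 and 86.1 ± 47.2 FPKM) in the upper part.

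With the GC and length correction the groups did not overlap in 19 of the 35 members (54.3%), against 22.0% of all genes tested. Lower were 13 (10.9% of all genes) and higher were 6 (11.1%). Members and all genes were not matched for expression level, and genes with few counts are harder to separate. ACTB, ACTG1, TGFB1I1, CALD1, ACTN1, ZYX and PDLIM7 joined the lower side, which TPM3 left, and MYL12B and CNN3 joined the upper side. At an unadjusted p under 0.05 there were 15 members (42.9%, against 16% of all genes), 4 higher (8.48% of all genes) and 11 lower (7.49%). TAGLN alone passed at an adjusted p under 0.05, against 0.189% of all genes lower. The members' median log2 fold change was then -0.21, against 0.01 over all genes. Gene length and log2 fold change correlated across the 35 members at a Spearman coefficient of 0.23 before and 0.05 after the correction. This is a description across genes that share the 6 libraries; over 13768 genes the values were 0.17 and -0.0020. Of the 12 members of at least 8000 bases 7 lay above 0 before and 5 after the correction; of the 23 shorter members 7 lay above 0 both before and after.

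**Figure D5:**
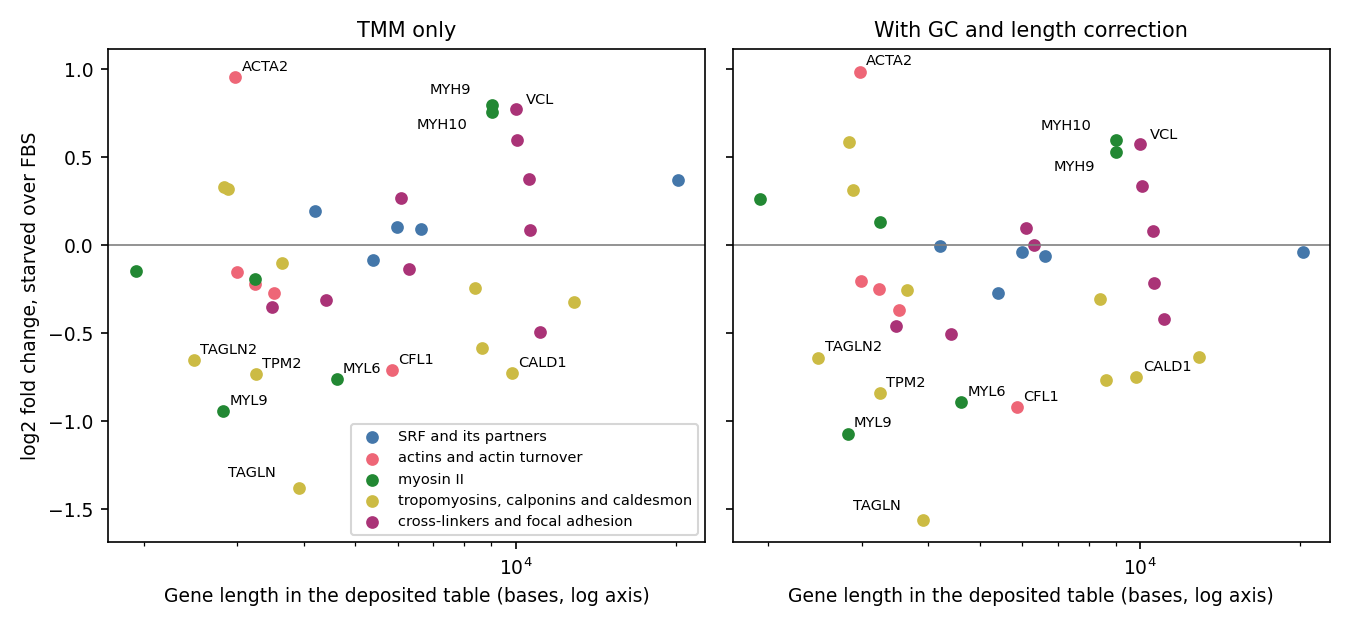
log2 fold change of the 35 genes against gene length in the deposited table (log axis), before (left) and after (right) the per-library correction for GC content and length; colours are role groups. MYH9, MYH10 and VCL move down from 0.76 to 0.80 before to 0.53 to 0.60 after, while TAGLN, MYL9, MYL6 and CFL1 lie further below 0 after it. In MYL6 and CFL1 serum-starved replicate 3 stayed far below the other libraries in corrected CPM.

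Other genes of the pathway were read from 3 lists chosen by role. Of 26 genes of actin assembly 0 passed in edgeR; CAPZA2, a capping protein subunit, lay lowest (log2 fold change -1.39, edgeR adjusted p = 0.321) and GSN, which encodes gelsolin, highest (0.78, 0.392). PFN1, which encodes profilin and feeds monomers to filaments, was at 1251, 1389 and 439 CPM without serum against 1599 to 1855 CPM with FBS, low in the same library as MYL6 and CFL1. Of 16 other focal adhesion genes 0 passed, with TNS3, a tensin, highest (1.09, 0.256) and ILK lowest (-2.02, 0.378). ILK was at 2 CPM or less in every library, and 2374 bases of its exons overlap with TAF10 on the opposite strand. Of 13 tested further SRF targets of smooth muscle type 0 passed, from PPP1R12A (-0.64, edgeR adjusted p = 0.69) to PPP1R12B (1.13, 0.53), both subunits of myosin phosphatase. With the GC and length correction no gene of these 3 lists passed either, and their smallest uncorrected adjusted p in edgeR was 0.256. Over all genes 0.283% passed in the main fit and 0.777% with the correction, so 0 calls in lists of this size are near the share of all genes. At an unadjusted p under 0.05 in edgeR the lists held 4 of 26, 5 of 16 and 2 of 13 genes, against 10.4% of all genes. DESeq2 called 0 of them at an adjusted p under 0.05, against 1.16% of all genes, and 4, 5 and 2 at an unadjusted p under 0.05, against 11.8%.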

How the data were processed

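The authors deposited, per the file headers, raw counts per gene and library and FPKM values, with gene positions and lengths. Gene length here means that deposited value, which for the members is shorter than the span between a gene's positions. The GC and length correction used this value and not the lengths of the transcripts expressed, which were not estimated. Build GRCh38 and the tools STAR 2.6.1 and DESeq2 come from the submitters' processing notes. Which tool counted reads, and whether by strand, was not given in the sources used here. Deposited FPKM equal counts per gene length scaled by size factors (median ratio 1 to the recomputed value), so they are comparable between libraries. All 58735 positions matched GENCODE 29.

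Counts were filtered with filterByExpr (minimum count 10, total 15; 13772 genes kept), scaled with TMM and tested in R 4.3.3 by glmQLFTest after a robust glmQLFit (edgeR 4.0.16), threshold 0.05 after Benjamini-Hochberg adjustment. SE is the size of the log2 fold change divided by the square root of F. DESeq2 1.42.0 and limma 3.58.1 were alternatives. The GC and length correction entered splines (5 degrees of freedom each) on mean transcript GC content and gene length, fitted per library, as offsets; corrected CPM were divided by the same trend. The tests were run on simulated counts first. Members, lists and alternatives were chosen with earlier results of these data known. Genes set to be described in full were SRF, the 5 members furthest from 0 in each direction and the member with the highest FPKM of each role group. Per list without a call it was the gene at each end. Other members, among them CFL1 and ACTG1, were described as well, outside that rule. PFN1 was added by role after its values were seen. A further list of pathway genes is not reported here. A 50-base stretch was counted as shared when it occurs in any GENCODE 29 transcript of another gene. The reads carry no molecular identifiers and are not independent molecules, so detection limits cover only counting error.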

Additional observations from a re-analysis of the deposited data

How the results depend on the processing

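The number of genes that passed over the whole table was 39. It was 25 with total counts alone, 127 with no low-count filter, 160 in DESeq2, 107 with the GC and length correction and 145 when the replicate block was added to it. In limma on log2(FPKM + 1) it was 22, on log2(FPKM + 0.1) 19, and 0 on log2(FPKM + 1) with no filter (1534 at an unadjusted p under 0.05); the cause was not tested. Leaving out single libraries gave 4 (without FBS replicate 1) to 257 (without serum-starved replicate 3). No member was called higher in any of the 18 alternatives. The number called lower, 0, was 1 with no low-count filter, in DESeq2, and with the GC and length correction with or without the block, and 0 to 1 with a library left out; the gene was TAGLN each time. Members with groups apart were 4 above and 7 below, against 10% and 7.65% of all genes. With the GC and length correction they were 6 above and 13 below, against 11.1% and 10.9% (6 and 13 with the block too). They were 6 above and 6 below with total counts alone, and 3 above and 7 below in limma on filtered FPKM. A library left out gave 4 to 7 above and 7 to 11 below, where fewer libraries make separation easier. Shares of all genes were not computed for total counts, FPKM or left-out libraries, so those counts cannot be read as a result about the members.

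The median log2 fold change of the members moved by less than the spread between replicates (SD 0.127) in each alternative. That SD is nearly as large as the main median itself, -0.144. Without serum-starved replicate 3 the median was -0.045, against -0.008 over all genes, so much of it rests on that library. With another library left out it was -0.124 to -0.215. Of 628 comparisons of single members with their alternative value, 31 changed sign, in 12 members, none of which passed in any fit; the cause was not tested. With the GC and length correction, and then with the block added, the values were -0.003 and -0.003 for SRF, -0.037 and -0.031 for MICAL2, -0.041 and -0.121 for FHL1, -0.062 and -0.070 for FHL2, 0.134 and 0.133 for MYL12A, 0.264 and 0.261 for MYL12B, and -0.213 and -0.212 for ACTN1; LIMA1 was at 0.000 with the correction alone. FHL1 was at -0.007 in limma-voom, -0.003 with the block and -0.011 on log2(FPKM + 0.1). With a library left out the ranges were -0.215 to 0.391 for SRF, -0.137 to 0.440 for FHL1, -0.049 to 0.190 for FHL2, -0.291 to 0.147 for TGFB1I1, -0.334 to 0.053 for ACTG1, -0.270 to 0.056 for MYL12B, -0.510 to 0.174 for CNN2, -0.006 to 0.611 for CNN3, -0.016 to 0.182 for ACTN1 and -0.580 to 0.10 for LIMA1. Same-numbered libraries did not deviate together (correlations of -0.257, 0.097 and -0.082 for replicates 1, 2 and 3; FBS replicate 1 correlated best with serum-starved replicate 3, at 0.261), so the numbers were not taken as pairs; the replicate block alone gave 43 genes and left TAGLN at an edgeR adjusted p of 0.0873, or 0.0054 with the GC and length correction added. A biological coefficient of variation of 36.3% limits what 3 libraries a group can show, so members that did not pass may still differ.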
